A study of Homo sapiens with 4 samples.

Results

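CpG-dense tiles that were unmethylated in wild-type HEK293T cells were followed into cells that had lost ZNF274. The genome was divided into tiles of 1000 bases from the first base of each chromosome, and tiles of chr1 to chr22 with 60 or more CpGs and 50 or more reads in each of the 4 libraries were kept. The members were then chosen by their wild-type level, as the tiles in which the mean mCG level of the 2 WT libraries was under 10%. There were 10370 of them among 20279 CpG-dense tiles, or 51.1%, beside 3162 tiles with a WT mean from 10 to 50% and 6747 at 50% or more.

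EM-seq (enzymatic methyl sequencing) was the assay. Its enzymes leave methylated cytosines as C in the reads and turn unmethylated ones into T. The mCG level of a tile is the percentage of its reads over CpGs that carried C, and differences are given in percentage points. HEK293T is a line derived from human embryonic kidney. The WT group held 2 libraries of this line, and the ZNF274KO group held 2 libraries of the line after CRISPR-Cas9 removal of ZNF274 with a pair of guides on either side of the gene. Per the methods of the study, edited cells were selected with puromycin and sorted as single cells. Whether the libraries of a group came from separate cultures or clones is not given in the sources used here, so their spread may be technical.

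Most CpGs of mammalian genomes are methylated, whereas CpG islands, short stretches with many CpGs that often hold gene starts, are usually kept free of methylation. Binding of transcription factors and of proteins with CXXC domains, and H3K4 methylation, are known to keep DNA methyltransferases away from them. ZNF274 carries zinc fingers, KRAB domains and a SCAN domain, and recruits KAP1 and the H3K9 methyltransferase SETDB1 to its sites, among them the 3′ ends of zinc finger genes. The question here was whether unmethylated CpG-dense sequence stayed so without ZNF274.

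From 6 of these tiles, 200 bases each are printed from the plus strand of GRCh37 (hg19), 5′ to 3′, with each CG in capitals. No stretch lies in a UTR annotated by GENCODE. The first comes from a tile between genes near PSD2, 1 of the 4 with both ZNF274KO levels at least 5 points over both WT levels. It is the last 200 bases of that tile, with 16 CpGs (chr5:139167801-139168000). The COLGALT2 stretch (chr1:184006001-184006200, 27 CpGs) lies at the opposite end of another such tile, as its first 200 bases. Each of these tiles was cut into 5 stretches of 200 bases, and those outside UTRs with 20 or more reads in every library were compared. The one with the largest difference of group means was printed, so that difference is large by choice.
PSD2 tile, end: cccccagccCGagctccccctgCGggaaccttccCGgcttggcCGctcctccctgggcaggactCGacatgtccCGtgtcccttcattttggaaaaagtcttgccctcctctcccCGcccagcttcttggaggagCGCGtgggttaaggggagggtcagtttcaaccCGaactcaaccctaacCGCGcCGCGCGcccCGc
COLGALT2 tile, end: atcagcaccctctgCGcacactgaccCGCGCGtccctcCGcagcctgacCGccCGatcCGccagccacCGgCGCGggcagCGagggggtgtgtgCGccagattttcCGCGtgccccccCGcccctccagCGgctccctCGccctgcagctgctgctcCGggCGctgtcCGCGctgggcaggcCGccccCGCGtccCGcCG

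The next comes from the tile at the start of ZNF891, which had the largest negative difference. It is the most CpG-rich stretch of that tile, with 21 CpGs (chr12:133706525-133706724). The last 3 stretches are the most CpG-rich ones of tiles that stayed under 10% in every library, in ZSCAN18 (chr19:58609599-58609798, 23 CpGs), at the start of ZNF44 (chr19:12405236-12405435, 24 CpGs) and at the start of HOXD8 (chr2:176994213-176994412, 24 CpGs).
ZNF891 tile, rich stretch: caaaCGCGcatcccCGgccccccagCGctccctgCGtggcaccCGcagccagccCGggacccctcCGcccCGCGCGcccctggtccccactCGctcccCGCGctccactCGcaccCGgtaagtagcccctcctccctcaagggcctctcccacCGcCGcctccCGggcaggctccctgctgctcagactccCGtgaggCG
ZSCAN18 tile, rich stretch: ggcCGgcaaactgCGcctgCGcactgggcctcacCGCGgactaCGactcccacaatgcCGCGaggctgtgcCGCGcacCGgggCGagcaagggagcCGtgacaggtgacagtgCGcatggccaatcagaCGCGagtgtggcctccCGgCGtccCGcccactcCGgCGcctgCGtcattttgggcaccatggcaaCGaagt
ZNF44 tile, rich stretch: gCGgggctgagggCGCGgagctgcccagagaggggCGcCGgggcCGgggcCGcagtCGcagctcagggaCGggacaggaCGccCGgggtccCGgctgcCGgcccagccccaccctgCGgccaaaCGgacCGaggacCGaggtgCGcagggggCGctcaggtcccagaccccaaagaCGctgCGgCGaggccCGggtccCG
HOXD8 tile, rich stretch: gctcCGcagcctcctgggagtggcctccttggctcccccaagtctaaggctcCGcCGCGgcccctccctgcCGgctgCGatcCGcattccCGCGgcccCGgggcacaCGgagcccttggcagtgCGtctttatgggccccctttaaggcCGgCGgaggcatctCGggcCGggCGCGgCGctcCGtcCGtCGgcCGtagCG

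The libraries held 230828955 to 281998073 reads over autosomal CpGs, with a median of 8 to 10 reads per CpG, and 1 read counts at every CpG it covers. Over the autosomes, mCG stood at 60.9% ± 0.799 for WT libraries and 60.4% ± 1.32 for ZNF274KO libraries (SD, n = 2). The 501 CpGs listed within ZNF274 (chr19:58694396-58724928) carried 5158 reads in WT 1 and 4274 in WT 2. They carried 0 reads in ZNF274KO 1, which allows up to 3, and 14 in ZNF274KO 2. For this reason 2 CpG-dense tiles over ZNF274 fell below the read minimum and are not among the 20279. Intervals and limits cover counting error only.

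The unmethylated tiles stayed unmethylated in ZNF274KO cells with few exceptions. Of the 10370 tiles, 10001 (96.4%) were under 10% in both ZNF274KO libraries, 8797 were under 5% in both and 7044 were under 2% in both. Another 281 were at or over 10% in 1 of the ZNF274KO libraries, and 88 were at or over 10% in both. No tile had both ZNF274KO levels at least 10 points over both WT levels, and 4 had them at least 5 points over. The highest ZNF274KO level of any member was 21.9%.

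Over all members the groups differed by less than the libraries within a group. Averaged over tiles, WT 1 had 1.88%, WT 2 1.74%, ZNF274KO 1 1.87% and ZNF274KO 2 1.72%, so that each group held a higher and a lower library and the groups overlapped. The medians were 0.671%, 0.533%, 0.509% and 0.605% in the same order, from a median of 727 to 812 reads per tile. A contig named L, whose identity is not given in the sources used here, read 0.19 to 0.277% methylated. The difference of a tile (ZNF274KO mean minus WT mean) had a median of -0.00357 points with quartiles of -0.374 and 0.283, beside a median of -0.12 points over all CpG-dense tiles.

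**Figure D1:**
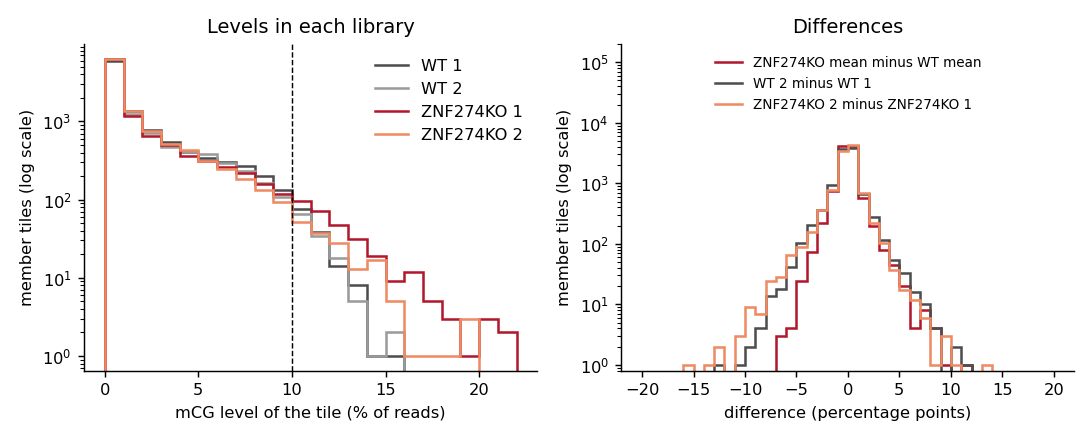
Left, number of member tiles (log scale) by mCG level in 1-point steps in each of the 4 libraries, with a dashed line at 10%. Right, number of member tiles (log scale) by difference in percentage points, for the ZNF274KO mean minus the WT mean and for each pair of replicates. The WT mean was held under 10% by choice, and the 99th percentile of the size of the difference was 4.1 points between groups, 5.51 between WT libraries and 5.92 between ZNF274KO libraries. Single libraries differ more widely than means of 2 by construction, so these widths are not on 1 scale.

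The choice by WT level sets what can be read from single tiles, since a tile picked for a low WT value can more easily be higher elsewhere. WT 1 itself was at or over 10% in 137 members and WT 2 in 126, beside 299 in ZNF274KO 1 and 158 in ZNF274KO 2. The reverse choice, tiles with a ZNF274KO mean under 10%, gave 10474 tiles, of which 10188 were also members. In 5 of these 10474 both WT levels were at least 10 points over both ZNF274KO levels, and in 19 at least 5 points over. Among the members the corresponding counts in the other direction were 0 and 4. The count of 5 was 0 with tiles shifted by 500 bases, 0 with 80 or more CpGs, and 9 without WT 1, 13 without WT 2, 12 without ZNF274KO 1 and 17 without ZNF274KO 2. Without these libraries in turn the count of 0 was 3, 1, 1 and 5. With a library left out fewer levels have to lie apart, so the condition is easier to meet.

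Tiles close to the limit are given as a description. The 5 members just inside, at MTUS2, PDGFA, SPINDOC, PLCH2 and WDR59, had WT means of 9.99%, and ZNF274KO means of 9.59%, 9.95%, 11%, 14.6% and 11.3%. The 5 tiles just outside, at HMCES, near CTAGE1, at LRRC7, at GPR63 and near CORO2A, had WT means of 10%, and ZNF274KO means of 9.27%, 10.3%, 11.4%, 8.34% and 8.38%. The 88 tiles at or over 10% in both ZNF274KO libraries had a median WT mean of 8.8%, the lowest at 5.2%, and a median difference of 4.03 points. Of the 9017 members with a WT mean under 5%, 14 reached 10% in 1 ZNF274KO library and 0 in both.

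A count test across all 20279 CpG-dense tiles (edgeR quasi-likelihood test on methylated and unmethylated reads, Benjamini-Hochberg adjustment) called 26 tiles higher in ZNF274KO, which is 0.128%, and 20 lower, which is 0.0986%. On simulated data this test made more false calls than its threshold allows. None of the called tiles was a member, and the smallest adjusted p of a member was 0.0648. At an unadjusted p under 0.05 there were 501 members (193 higher, 308 lower), or 4.83%, against 6.83% of all CpG-dense tiles. A limma fit, negative binomial dispersions and a bias-adjusted deviance each called 0 of all 20279 tiles, so that their 0 members called say nothing about members, and had 931, 652 and 454 members at an unadjusted p under 0.05. With the replicate number as a block, 2 members were called higher and 5 lower, beside 45 (0.222%) and 70 (0.345%) of all CpG-dense tiles. These values describe the members and test nothing about them, because their WT levels entered the choice.

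Both ZNF274KO levels lay above both WT levels in 1465 members (14.1%, against 12.7% of CpG-dense tiles) and below them in 1695 (16.3%, against 21.4%). Over all CpG-dense tiles, 43 (0.212%) had both ZNF274KO levels at least 10 points over both WT levels. Of these, 11 were among the tiles at 10 to 50% in WT and 32 among those at 50% or more. Both WT levels were at least 10 points over both ZNF274KO levels in 22 and 23 tiles of these classes. In members this could not occur, since their WT mean was under 10%.

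The 15 largest positive differences with both ZNF274KO levels over both WT levels were picked after their values were seen, since no member was called. Their WT means ran from 2.04 to 9.75%, and their adjusted p (edgeR) from 0.267 to 0.773, so that none passed the test. Gene starts lay in 7 of them, exons in 6, and 2 lay between genes.

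The largest by summed reads was an exonic tile of UHRF1 (chr19:4910001-4911000, 79 CpGs), the gene of the protein that reads hemimethylated CpGs and brings DNMT1 to them. WT 1 had 7.08%, WT 2 5.74%, ZNF274KO 1 21.2% and ZNF274KO 2 14.9%. The ZNF274KO libraries were both higher, 11.6 points in the mean (unadjusted p = 0.00196, edgeR adjusted p = 0.267), and differed from each other by more than the WT libraries did. The tile had 791, 627, 325 and 404 reads, so its depth relative to the autosomes was 0.555 times that of WT.

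The methylated reads of this tile lay at its end. Its last 200 bases read 45.6%, 50.8%, 64.1% and 66.7% in the order WT 1, WT 2, ZNF274KO 1, ZNF274KO 2, and its first 200 bases read 0% in all of them. Those first 200 bases had 214 and 170 reads in WT but 49 and 67 in ZNF274KO, while the last 200 had 114, 59, 92 and 81. As a plain mean over the 35 CpGs that every library covered with 3 or more reads, the difference was 4.94 points. The part of read placement in the 11.6 points was not tested.

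The tile near PSD2 (chr5:139167001-139168000, 70 CpGs, 7393 bases from the gene start) went from 6.1% and 4.29% in WT to 14.8% and 13.1% in ZNF274KO (edgeR adjusted p = 0.315). PSD2 encodes an exchange factor for ARF GTPases. The end stretch printed above, picked for its group difference, read 58.1%, 38.2%, 69.8% and 68.3%. The end stretch had 74 and 55 reads in WT and 126 and 101 in ZNF274KO. The plain mean over CpGs differed by 0.819 points, against 8.77 points from summed reads.

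At the start of COLGALT2 (chr1:184006001-184007000, 107 CpGs), which encodes a collagen galactosyltransferase, the levels were 6.29% and 8.51% in WT and 14.8% and 14.2% in ZNF274KO (edgeR adjusted p = 0.425). The ZNF274KO libraries lay close together and above both WT libraries. The end stretch printed above, the first 200 bases of the tile, read 21.3%, 32.1%, 36.4% and 42.7%. The 200 bases in the middle of the tile read 0%, 0.465%, 0.585% and 0.733%. The plain mean over CpGs differed by 2.81 points.

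Other tiles among the 15 had more spread between the ZNF274KO libraries. The tile at the start of GSTP1 (chr11:67351001-67352000), a glutathione S-transferase gene whose promoter is often methylated in prostate cancer, read 7.18%, 6.28%, 10.4% and 19.8%. Its first 200 bases read 0.503% in WT 1 and 0% in the other libraries. The tile at the start of LRFN5 (chr14:42076001-42077000), a synaptic adhesion gene, read 10.3%, 2.3%, 20.8% and 11.3%, so that WT 1 and ZNF274KO 2 were nearly equal. The tile in HLA-F (chr6:29691001-29692000), a non-classical MHC class I gene, read 7.04%, 8.3%, 20.1% and 11%. At the start of SNN (chr16:11762001-11763000) the levels were 4.11%, 5.38%, 16% and 7.67%.

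The remaining 8 of the 15 were at ATAD2 and NTAQ1, GJD2, ETNK2, PPP1CA, CTNND2, near TFDP1, at FAM149A and at KNDC1, with differences of 6.44 to 8.87 points. With 1 library left out, the smallest of these was 3.81 points, at FAM149A without ZNF274KO 2, against 7.25 with all libraries. In 13 of the 15 tiles some 200 bases stayed under 5% in every library, and in 12 some 200 bases had a mean of 25% or more. All 15 had a neighbouring tile at 50% or more in WT, as did 82 of the 88 tiles at or over 10% in both ZNF274KO libraries (93.2%) and 52.9% of members with both neighbours measured. No share was taken among members of a like WT mean. All 88 had a WT mean of 5.2% or more, whereas 9017 members were under 5%. In 13 of the 15 the plain mean over CpGs gave a smaller difference than the summed reads, with a median of 4.94 against 7.83 points. The exceptions, GJD2 and CTNND2, had the largest differences of plain means, at 10.2 and 9.05 points. The tile near TFDP1 changed sign to -0.354 points when reads of the first strand alone were used.

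**Figure D2:**
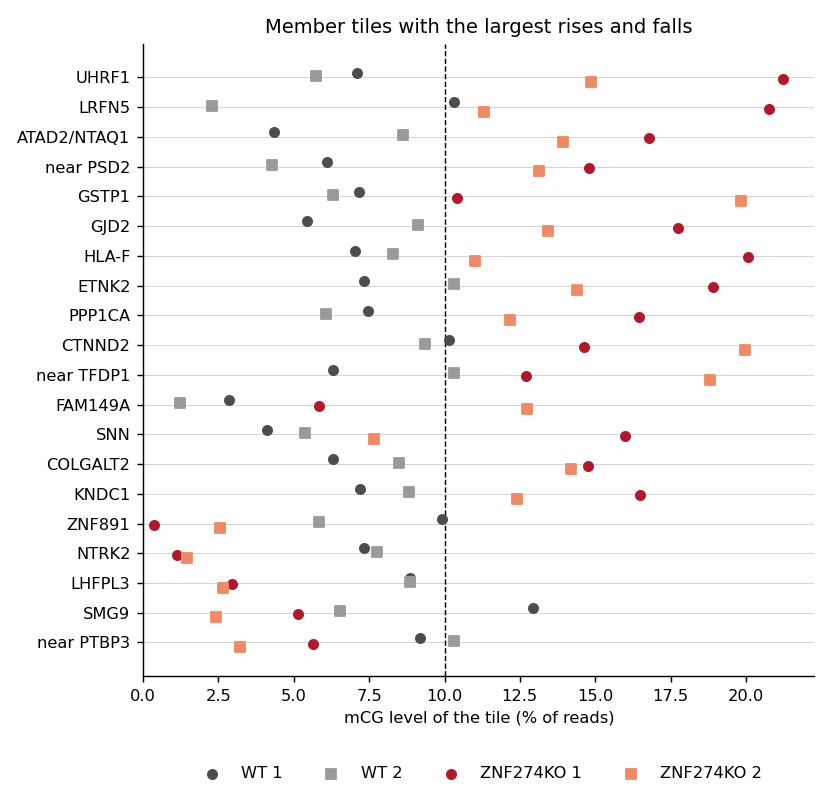
mCG level (percent of reads) of the 15 member tiles with the largest positive and the 5 with the largest negative differences, by gene, with 1 point per library and a dashed line at 10%. The WT points were held low by choice. The 15 were chosen with both ZNF274KO levels over both WT levels, so their separation is by choice. In the 5 the ZNF274KO points lie below the WT points. The ZNF274KO libraries lie farthest apart in LRFN5, GSTP1, HLA-F and SNN.

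A negative difference could not exceed the WT level. The largest in size was at the start of ZNF891 (chr12:133706001-133707000, 67 CpGs), a zinc finger gene of the cluster at the end of chromosome 12, where levels were 9.91%, 5.84%, 0.374% and 2.56%. Both ZNF274KO libraries were lower, by 6.41 points in the mean (unadjusted p = 0.000185, edgeR adjusted p = 0.0648). The 5 kb on each side were lower too, at 60.8% and 60% in WT and 47.3% and 48.4% in ZNF274KO. The 25 kb on each side were not, at 73.2% and 72.5% in WT and 73.7% and 72.3% in ZNF274KO. The edgeR adjusted p was 0.00281 with the replicate block and 0.0256 in a fit over all tiles of 20 or more CpGs. Other settings gave higher values, among them 0.352 on the second strand and 0.828 by limma. With a library left out, the difference ran from -8.44 points without WT 2 to -4.37 points without WT 1. The first 200 bases of the tile read 78.4% and 95.7% in WT and 5.17% and 34.3% in ZNF274KO. They had 88, 23, 58 and 67 reads in the order WT 1, WT 2, ZNF274KO 1, ZNF274KO 2. Depth of the tile relative to the autosomes was 1.45 times that of WT, and its part was not tested. The rich stretch printed above read 3.46% in WT 1 and 0% in the other libraries.

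The tile that follows it, at the start of ZNF10, was no member, with 21.2% and 21.9% in WT and 1.25% and 3.98% in ZNF274KO. It was called lower (edgeR adjusted p = 2.95e-05) and is 1 of the 5 tiles of the reverse choice with a change of at least 10 points. The other 4 lay at ZNF239, DCLK2, near ZNF850 and at TACC1, the first 3 of them called lower (edgeR adjusted p = 0.00211, 0.0114 and 0.00511) and TACC1 not (adjusted p = 0.18). Limma, negative binomial dispersions and the bias-adjusted deviance called 0 of all 20279 CpG-dense tiles, so they say nothing about these 5. Zinc finger genes of chromosome 19 had starts in 66 CpG-dense tiles, of which edgeR called 2 higher and 0 lower. For other chromosomes it called 3 of 134 higher and 1 lower, against 0.128% and 0.0986% of all CpG-dense tiles.

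The next were in NTRK2 (7.34%, 7.75%, 1.13% and 1.46%), the gene of the neurotrophin receptor TrkB, and at the start of LHFPL3 (8.85%, 8.85%, 2.94% and 2.64%). In both the replicates of a group were close together, and neither passed the test (edgeR adjusted p = 0.362 and 0.389). SMG9, a gene of nonsense-mediated decay, and the tile near PTBP3 followed with differences of -5.95 and -5.32 points. The SMG9 tile read 12.9%, 6.52%, 5.13% and 2.42%, and without WT 1 its difference was -2.75 points. As plain means over CpGs, SMG9 and the tile near PTBP3 differed by -1.03 and -0.71 points, while ZNF891 differed by -7.04 points.

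Taken as medians over members, the surroundings differed little between the groups. With 5 kb on each side, the median level around a member was 54.8%, 53.7%, 54% and 52.4% in the order WT 1, WT 2, ZNF274KO 1, ZNF274KO 2. With 25 kb on each side it was 70.1%, 69.6%, 69.6% and 68.1%. In 17 members, however, the surroundings within 5 kb or 25 kb had both ZNF274KO levels at least 10 points above both WT levels. These tiles were chosen on their surroundings, which the rule for members did not use, and all but those at NCKAP5, SCNN1G and near DUXA were at zinc finger genes. At 25 kb such a difference was found around 14 tiles, and the opposite one around 0. At 5 kb the counts were 6 and 5.

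These 17 tiles did not follow their surroundings upward. All 17 were under 10% in both ZNF274KO libraries. The mean of ZNF274KO was below that of WT in 14, both ZNF274KO levels were below both WT levels in 11, and both were above in 0, against 16.3% and 14.1% of all members. Over the 17 tiles WT 1 averaged 3.19%, WT 2 3.14%, ZNF274KO 1 1.5% and ZNF274KO 2 1.88%. Over the 1 kb tiles at a distance of 10 kb before them it was 41.3%, 39.8%, 65.8% and 60.8%, and at 10 kb after them 54.2%, 56.9%, 80.2% and 71.9%. The counts are descriptions, and no member among the 17 passed the test.

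**Figure D3:**
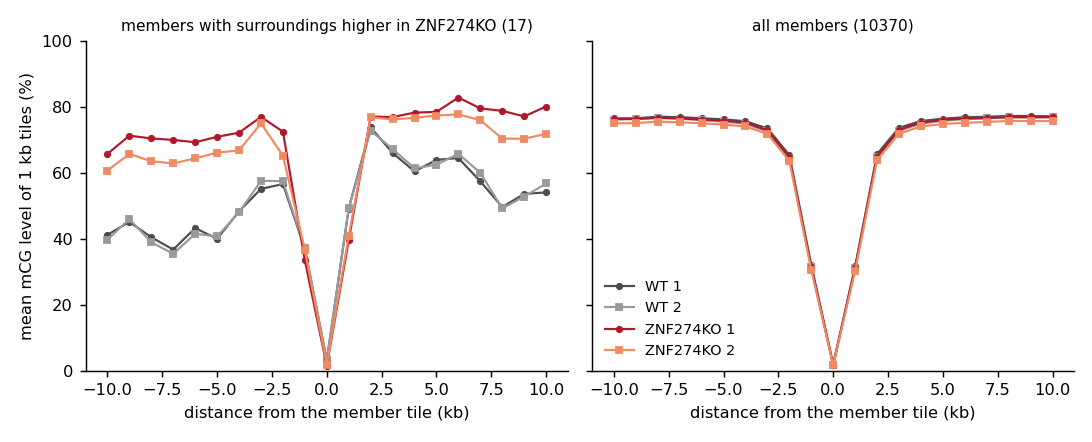
Mean mCG level (percent) of 1 kb tiles against distance in kb from the member tile, per library, for the 17 members whose surroundings were higher in ZNF274KO (left) and for all members (right). On the left the ZNF274KO lines lie above the WT lines at 2 kb and beyond, but not at the member itself, and on the right the 4 lines nearly coincide.

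The widest contrast was in ZSCAN18 (chr19:58609001-58610000, 68 CpGs), a SCAN domain zinc finger gene near the deleted ZNF274 on chromosome 19. The tile read 2.96%, 0.431%, 1.09% and 0.545%, with no order between the groups. Its surroundings within 5 kb read 23.2% and 21.9% in WT and 73.9% and 69.3% in ZNF274KO. The 1 kb tile after it went from 0% and 0% to 18% and 27.3%, and the rich stretch printed above stayed at 0%, 0.461%, 0% and 0%.

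A group of zinc finger genes on the short arm of chromosome 19 also kept low tiles. The tile at the start of ZNF44 (chr19:12405001-12406000) read 0.253% and 0% in WT and 0.24% as the mean of the ZNF274KO libraries, while the 25 kb around it read 67.1% and 65.3% in WT and 83.6% and 81% in ZNF274KO. The tile in ZNF799 read 0.43%, 0.346%, 0% and 0.303%, with surroundings that went from 49.5% and 46.3% to 76.3% and 70.1%. The tile at the start of ZNF443 read 0.171%, 0.396%, 0% and 0%, with surroundings from 50.5% and 49.2% to 72.5% and 65.9%.

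In some zinc finger tiles the level was lower in ZNF274KO while the surroundings were higher. At the start of ZNF551 (chr19:58193001-58194000) the tile went from 6.04% and 6.2% to 0.327% and 2% (edgeR adjusted p = 0.273), and the 25 kb around it from 48.4% and 47.1% to 67.9% and 65.2%. At the start of ZFP28 (chr19:57050001-57051000) the tile went from 9.02% and 6.97% to 1.31% and 4.44% (edgeR adjusted p = 0.734), and the 25 kb around it from 26.3% and 24.4% to 56% and 47.9%. At the start of ZNF140 on chromosome 12 the tile went from 1.42% and 2.28% to 0% and 0.292%, and in ZNF84 from 1.02% and 1.62% to 0% and 0.109%.

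Some tiles next to these were much lower in ZNF274KO. The tile after the one in ZNF420 went from 75.3% and 82.2% to 26.8% and 42.3%, that after ZNF765 from 73.8% and 56.5% to 15% and 22.7%, and that after ZNF84 from 73.5% and 73.7% to 30.1% and 35.5%. These 3 were the neighbours, among 34 of the 17 tiles, with both ZNF274KO levels at least 20 points under both WT levels, and none was that far over. Of the 34, both ZNF274KO levels were under both WT levels in 16 and over them in 6. Over the 20633 measured neighbours of all members, 4195 were under and 2805 over, and 6 were at least 20 points under and 0 at least 20 points over.

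Tiles outside the zinc finger genes were among the 17 too. The tile in an intron of NCKAP5 on chromosome 2 read 5.08%, 5.34%, 2.32% and 3.46%, with 25 kb surroundings from 48.2% and 45.6% to 67.5% and 64.6%. The tile at the start of SCNN1G, a subunit of the epithelial sodium channel, read 6.31%, 5.91%, 7.95% and 5.51%, with 5 kb surroundings from 33.9% and 33.3% to 50% and 46.1%. The tile near DUXA, on chromosome 19, read 1.8%, 1.85%, 2.7% and 1.61%, with 5 kb surroundings from 40.5% and 36.7% to 62.7% and 54.9%.

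Gains in tiles low in WT were counted by number of CpGs, beside a fit over all 258030 tiles with 20 or more CpGs and 50 or more reads per library. This fit called 1160 tiles higher (0.45%) and 261 lower (0.101%). Among tiles with a WT mean under 10%, both ZNF274KO levels were at least 10 points over both WT levels in 107 of 3517 tiles with 20 to 29 CpGs (3.04%) and in 7 of 2025 with 30 to 39 CpGs (0.346%). They were so in 0 of 2120 tiles with 40 to 49 CpGs, in 2 of 2376 with 50 to 59 and in 0 of 10370 members. The reverse choice, with a ZNF274KO mean under 10% and both WT levels at least 10 points over, gave 6 of 3390, 3 of 2063, 1 of 2149, 4 of 2429 and 5 of 10474 tiles in the same classes, more than the gains in each class from 40 CpGs upward. Of the tiles low in WT in each of these classes, the same fit called 96, 7, 2, 2 and 0 higher and 0, 9, 0, 1 and 1 lower. Sparser tiles had fewer reads, with a median of 173 reads in the shallowest library at 20 to 29 CpGs against 629 in members, and the part of depth was not tested.

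**Figure D4:**
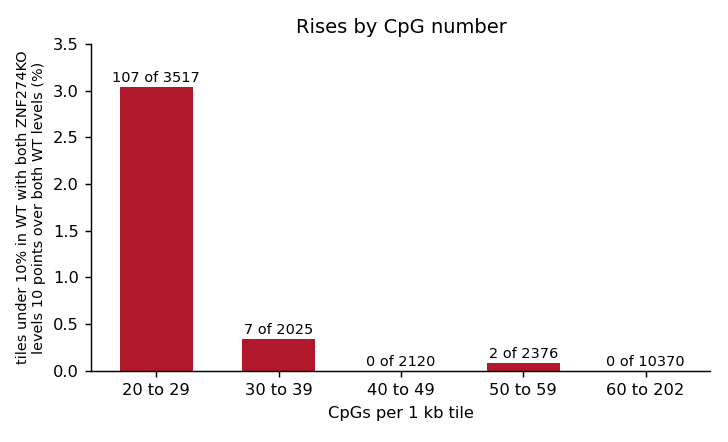
Percent of 1 kb tiles with a WT mean under 10% in which both ZNF274KO levels were at least 10 points over both WT levels, by number of CpGs in the tile, with the counts above the bars. The share is 3.04% at 20 to 29 CpGs and 0 of 10370 tiles at 60 or more. The reverse choice is not drawn.

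Many sparse tiles with such a gain lay near zinc finger genes. Within 100 kb of a zinc finger gene lay 223 of the 3517 tiles with 20 to 29 CpGs, and 74 of the 107 with the gain. Within the same distance lay 614 members, of which 586 were under 10% in both ZNF274KO libraries, with a median difference of -0.0533 points and a range from -6.41 to 7.87.

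Within the members the level went down with CpG number in all libraries. At 60 to 69 CpGs the mean level was 2.38%, 2.23%, 2.35% and 2.16%, and at 120 or more 1.29%, 1.1%, 1.22% and 1.19%. The share under 10% in both ZNF274KO libraries was 95.2% of 2211 tiles at 60 to 69 CpGs and 98% of 1173 at 120 or more. At single CpGs, 83.1% of the 617100 member CpGs with 5 or more reads in every library were at 0 in all 4. Only 4 CpGs were under 10% in both WT libraries and at or over 50% in both ZNF274KO libraries, and 2 showed the reverse.

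Groups of genes with different roles were described by the members at their starts, beside the median of -0.00357 points over all members. These lists were chosen with earlier results of the data known. Of 547 zinc finger genes, those of chromosome 19 had their start in 39 member tiles and those of other chromosomes in 101. In the first group 38 tiles were under 10% in both ZNF274KO libraries and the median difference was -0.0577 points, with the extremes at ZFP28 (-5.12) and ZNF296 (0.706). In the second group 98 were under 10% in both, with a median of -0.0816 points and extremes at ZNF891 (-6.41) and ZNF513 (3.19). Both ZNF274KO levels were under both WT levels in 11 of 39 and 27 of 101 tiles, and over them in 3 and 15, against 16.3% and 14.1% of all members and 21.4% and 12.7% of CpG-dense tiles. Other lists had such counts too, with 11 under and 5 over of 32 tiles of mitochondrial ribosomal protein genes and 4 under and 0 over of 11 tiles of KAP1 and heterochromatin factors. None of these member tiles was called.

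HOX genes, which encode the transcription factors of body axis patterning, had starts in 16 CpG-dense tiles, of which 10 were members, and other developmental transcription factors in 100, of which 46 were members. Of the 10 HOX members, 9 were under 10% in both ZNF274KO libraries, with a median difference of 0.37 points and a highest ZNF274KO level of 16.4%. Both ZNF274KO levels were over both WT levels in 4 of the 10 and under them in 1, against 14.1% and 16.3% of all members. The tile at the start of HOXD8 read 5.91%, 3.42%, 8.2% and 8% (edgeR adjusted p = 0.662), with both ZNF274KO levels over both WT levels. Its rich stretch printed above read 2.28%, 0.562%, 1.44% and 0%. The tile at the start of HOXB4 read 3.87%, 2.01%, 1.42% and 1.69%. Of the 46 other members, 45 were under 10% in both, with a median of -0.00134 points, 8 without overlap over WT and 9 under it, against the same shares. At NEUROG2, a neurogenic factor, 531 to 664 reads per library gave a level of 0% in all 4, and at OLIG1, a factor of the oligodendrocyte lineage, the levels were 4.77%, 7.64%, 10.7% and 8.66%.

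Starts of housekeeping genes followed. All 35 tiles of cytosolic ribosomal protein genes and all 32 of mitochondrial ribosomal protein genes were under 10% in both ZNF274KO libraries, with median differences of -0.068 and -0.178 points. RPL37 read 0%, 0%, 0.337% and 3.37%, and RPS12 read 0%, 0.136%, 0% and 0%. Of 18 proteasome tiles 17 were under 10% in both, the exception being PSME1 with 3.92%, 9.04%, 10.6% and 8.06%. All 16 tiles of nucleolar protein genes were under 10% in both. Of the 11 histone tiles all were, with the largest negative difference at H2AC12 and H2BC12, where WT read 1.41% and 7.36% and ZNF274KO 0% and 0.159% (edgeR adjusted p = 0.201).

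At the starts of genes of the methylation and silencing machinery no member was at or over 10% in both, unlike the exonic tile of UHRF1 given above. All 11 start tiles of DNA methylation enzymes and readers were under 10% in both ZNF274KO libraries. DNMT3A, a de novo methyltransferase, read 6.41%, 8.72%, 8.98% and 4.95%, and DNMT3B read 0.964%, 1.19%, 1.13% and 1.72%. All 11 tiles of KAP1 and heterochromatin factors and all 9 of CTCF and cohesin stayed under 10%, with differences from -0.667 to 0.408 and from -0.44 to 0.322 points. All 4 germline tiles were under 10% in both. Of 11 tiles of tumour suppressor genes 10 were, and GSTP1 was over 10% in both. In the KLK, PSG, KRT and NLRP families 1 tile was a member, shared by NLRP14 and ZNF214, with 11.9%, 5.91%, 16.2% and 7.24%. No clustered protocadherin gene had its start in a member, and 2 had it in a CpG-dense tile. None of the listed members was called (edgeR).

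**Figure D5:**
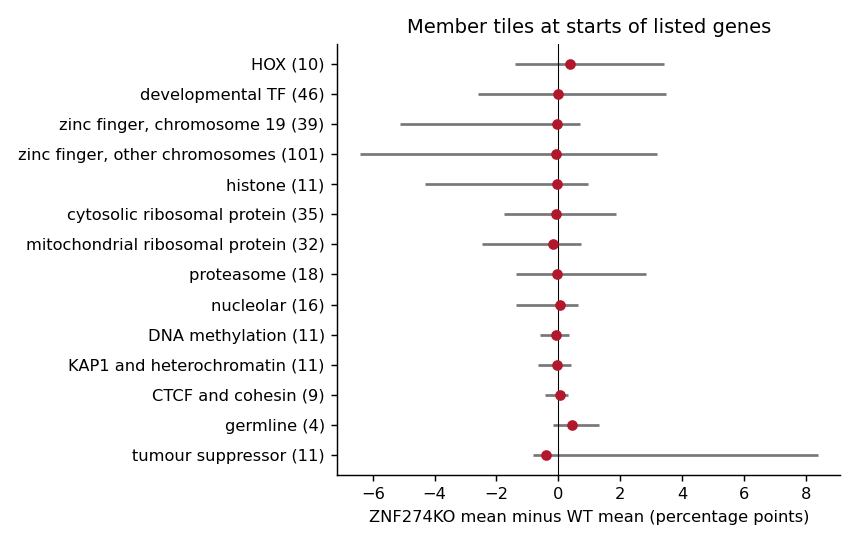
Difference in percentage points (ZNF274KO mean minus WT mean) of member tiles that hold the start of a listed gene, for lists with 4 or more such tiles, whose number is given in brackets. Points are medians and lines run from the lowest to the highest difference. All medians lie within 0.46 points of 0, and the longest lines are those of zinc finger genes towards lower and of tumour suppressor genes towards higher levels in ZNF274KO.

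Position relative to genes was not used in the choice. A protein-coding gene start lay in 53.2% of them, against 33.9% of CpG-dense tiles at 10 to 50% in WT and 11.5% of those at 50% or more. Exons without a start made up 34.1%, introns 4.38% and sequence between genes 8.37%. The median GC content was 65.7%, against 65.7% and 66.2% in the other classes. The rule set a minimum of 60 CpGs for all classes, and the median number was 85, 76 and 72. Members formed 8504 runs of neighbouring tiles, of which 6866 were single tiles, and the longest held 6 (chr7:5459001-5465000, mean level 0.979%, 1.78%, 1.26% and 0.856%).

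Short motifs were searched on both strands of each tile. The ETS motif CCGGAAG was in 23.8% of members and 19.9% of all CpG-dense tiles, and the SP1 motif GGGCGGG in 84.8% and 78.4%. The NRF1 core TGCGCA was in 23.1% and 22.6%, and the YY1 motif ATGGCGG in 19.2% and 19.3%. Among the 88 tiles at or over 10% in both ZNF274KO libraries the shares were 20.5%, 84.1%, 21.6% and 17%. Of these 88, 39.8% held a gene start, against 53.6% of the 10001 that stayed under 10% in both. These shares were not compared at a like WT mean.

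The chromosomes differed little in these values. The members per chromosome ranged from 118 on chromosome 21 to 989 on chromosome 1, and the median difference from -0.0837 points on chromosome 22 to 0.0464 on chromosome 13. On chromosome 19, which carries most clustered zinc finger genes, 659 of 685 members (96.2%) were under 10% in both ZNF274KO libraries, with a median difference of -0.0357 points. Depth relative to the autosomes was 1.04 times that of WT in the median member, with quartiles of 0.923 and 1.16, and 0.913 times on chromosome 19. In 12 of the 15 largest positive differences it was below 1, and its part in them was not tested.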

How the data were processed

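EM-seq of WT and ZNF274KO HEK293T cells gave 2 libraries per group, as labelled. Alignment was to hg19 plus rDNA in the Msuite2 pipeline (hisat2), and the authors deposited raw read counts per CpG, strand and base, not pooled or normalised. Filters are not given in the sources used here, so duplicated reads could make the counts less precise than they look. All 26540102 autosomal CpGs listed lay on a CG of GRCh37. Gene positions were those of GENCODE release 44 lifted to GRCh37.

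Reads were summed per tile and tested with edgeR 4.0.16 in R 4.3.3 (quasi-likelihood, Poisson variance with the spread trended on methylation log-odds, a coefficient per library, Benjamini-Hochberg adjustment over 20279 tiles). On simulated data a larger share of the calls was false than the adjusted threshold allows, so calls at that threshold may be too many. Alternatives included limma 3.58.1 with a pseudocount of 1. Named tiles were the 15 largest positive and 5 largest negative differences, 3 per gene list, 5 on each side of the limit, and tiles with higher surroundings. Printed stretches, the surroundings rule and the reverse-choice tiles were chosen after values were seen. Some stretches are not reported here. The members and lists were chosen with earlier results of these data known.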

Additional observations from a re-analysis of the deposited data

How the results depend on the processing

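The median difference of the set stayed within the spread of the WT library medians (SD 0.0974 points) under every alternative run on it. Members called higher and lower (0 and 0 in the main fit) were 2 and 5 with the replicate block, beside 0.222% and 0.345% of all CpG-dense tiles. In the fit over tiles of 20 or more CpGs they were 0 and 1, beside 0.45% and 0.101% of all its tiles. They were 2 and 0 with 40 or more CpGs, 0 and 3 with tiles shifted by 500 bases, 0 and 1 on the first strand and 1 and 1 on the second. For these fits the share over all tiles is not given here, so the counts are not read as results about members. Counts of calls with a library left out are not given, since 1 group then held 1 library. The differences of the replicates correlated at 0.0268 over CpG-dense tiles. This cannot tell whether the replicate numbers mark a shared batch, and the labels do not say. In both groups library 1 had the higher mean over members. No pairing was taken in the main fit. Negative binomial dispersions and the bias-adjusted deviance were added after seeing the data. They called 0 of all 20279 CpG-dense tiles, so they say nothing about members.

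Tiles in the set (10370) were 6124 with 80 or more CpGs, of which 5939 stayed under 10% in both ZNF274KO libraries. Tiles at or over 10% in both (88) were 149 with 40 or more CpGs, 39 with 80 or more and 156 when chosen on WT 2 alone, and 107 to 299 when a library was left out. Leaving out WT 1 gave 156. With 1 ZNF274KO library left, the condition rested on that library alone and was easier to meet. It gave 158 for ZNF274KO 2 alone and 299 for ZNF274KO 1 alone. Tiles with both ZNF274KO levels 10 points over both WT levels (0) were 2 with 40 or more CpGs, 1 with a limit of 20%, 2 on the second strand, and 1 to 5 when a library was left out. The reverse choice (5) gave 10 with 40 or more CpGs, 0 with 80 or more, 2 with a limit of 5%, 13 with a limit of 20%, 0 with shifted tiles, 8 from unweighted means, 8 on the second strand, and 9 to 17 when a library was left out. Leaving out a library eases both 10-point conditions, since fewer levels have to lie apart. The causes were not tested.

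The autosomal difference of -0.512 points ranged from -1.44 to 0.419 when a library was left out. It turned to 0.053 without WT 2 and to 0.419 without ZNF274KO 2. Of 220 values of the 20 named tiles under alternatives, 219 kept their direction. The exception was the tile near TFDP1 on the first strand (-0.354 points). Most of these directions were fixed in advance. Other fits of the same reads use the same levels. In all 20 tiles both ZNF274KO levels lay on 1 side of both WT levels, so a library left out cannot change the direction. The count is therefore no measure of stability. With 2 libraries per group, the precision for a single tile is limited.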
